A study of Rattus norvegicus with 10 samples.

Results

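The genes described here build, cap and lengthen the actin thin filament of skeletal muscle: the striated muscle actins Acta1 and Actc1, the cytoplasmic actin Actg1, the tropomyosins Tpm1, Tpm2, Tpm3 and Tpm4, and the filament-end proteins Tmod4, Lmod2 and Lmod3. They were picked by name, and the probe sets were those whose symbol in the platform's gene table is one of the 10, with the brightest set on average kept for each gene. Of the 10 genes, 9 had a probe set under that rule, out of 15037 genes measured on the array. Lmod3 has no row in the gene table used. Its probe set is named here from the annotation columns of the study's supplementary tables and is shown beside the other caps. It is outside the counts of genes that rose or fell, and inside the motif search and the isoform pairs.

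Femoral skeletal muscle was taken from 5 rats after 48 h of postmortem interval (PMI) and from 5 rats at 0 h of PMI, with 1 array for each rat. All were wild-type male Wistar rats killed by cervical dislocation. The 48 h carcasses lay in a chamber at 25 °C until sampling, and the 0 h muscle was taken at once, so the groups differ in the time spent dead and in nothing else that the labels give. RNA integrity was not assessed in the postmortem muscle.

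In a striated fibre, actin polymerizes into thin filaments of fixed length, and a tropomyosin coiled coil lies along each filament and lets troponin control access of myosin. Tropomodulins cap the pointed end of the filament, where it stops growing and shrinking, while leiomodins bind the same end and favour assembly and elongation. Adult skeletal fibres use mainly Acta1, and Actc1 is the actin of heart and of developing skeletal muscle. Tpm1 and Tpm2 supply the alpha and beta chains of the sarcomere, Tpm3 supplies the slow-fibre chain, and Tpm4 and Actg1 are used largely outside the sarcomere and in non-muscle cells.

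Of the 9 genes counted, 5 fell, 1 rose and 3 did not pass the test, where passing means a change of 2-fold or more together with a limma adjusted p below 0.05 (Benjamini-Hochberg over all probe sets). The genes that fell were Lmod2, Tmod4, Tpm3, Actc1 and Tpm2, and Tpm4 rose. The same criteria called 14.4% of all 15037 genes lower and 3.85% higher. The median change of the 9 genes was -1.23 on the log2 scale, where all genes had a median of 0.05. The bright end of the arrays was also lower, with a 99th percentile of 9.82 to 10.02 at 48 h and 10.64 to 10.72 at 0 h. At 0 h Acta1, Tpm1, Tpm2 and Tmod4 had mean percentile ranks of 100, 99.98, 99.7 and 99.6, while Lmod2 and Actg1 stood at 86.7 and 69.4. How far the falls go with the brightness of these genes was not tested. Values of the 5 rats did not overlap between 48 h and 0 h for 6 genes that were lower at 48 h and for 1 that was higher, against 19.9% and 12.3% of all genes. On the adjusted p alone, 7 were lower and 2 higher, beside 25.7% and 20.1% of all genes. All values are log2 RMA values, so a difference of 1 is a 2-fold change, and RMA gives the probes of every array a common distribution before summarising, so they are relative to the rest of each array.

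Arrays of the 48 h group correlated with each other at 0.912 to 0.931 and those of the 0 h group at 0.979 to 0.985 over all probe sets, so the arrays as a whole were less alike at 48 h. Background control probe sets read 3.54 to 3.82 at 48 h and 3.04 to 3.14 at 0 h, while the array medians were 5.17 to 5.21 in both groups. When arrays were centred on the spiked hybridization controls or poly-A controls instead, the median of all probe sets shifted to -1.18 and -1.97, so directions given here are relative to the array as a whole. Because the muscle was measured in bulk, fewer cells of a type and less RNA per cell cannot be told apart. Fast-fibre markers, among them Myh4, Tnnc2 and Atp2a1, identified the tissue as skeletal muscle, and their median level was 10.35 to 12.03 at 48 h and 12.56 to 12.82 at 0 h.

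**Figure D1:**
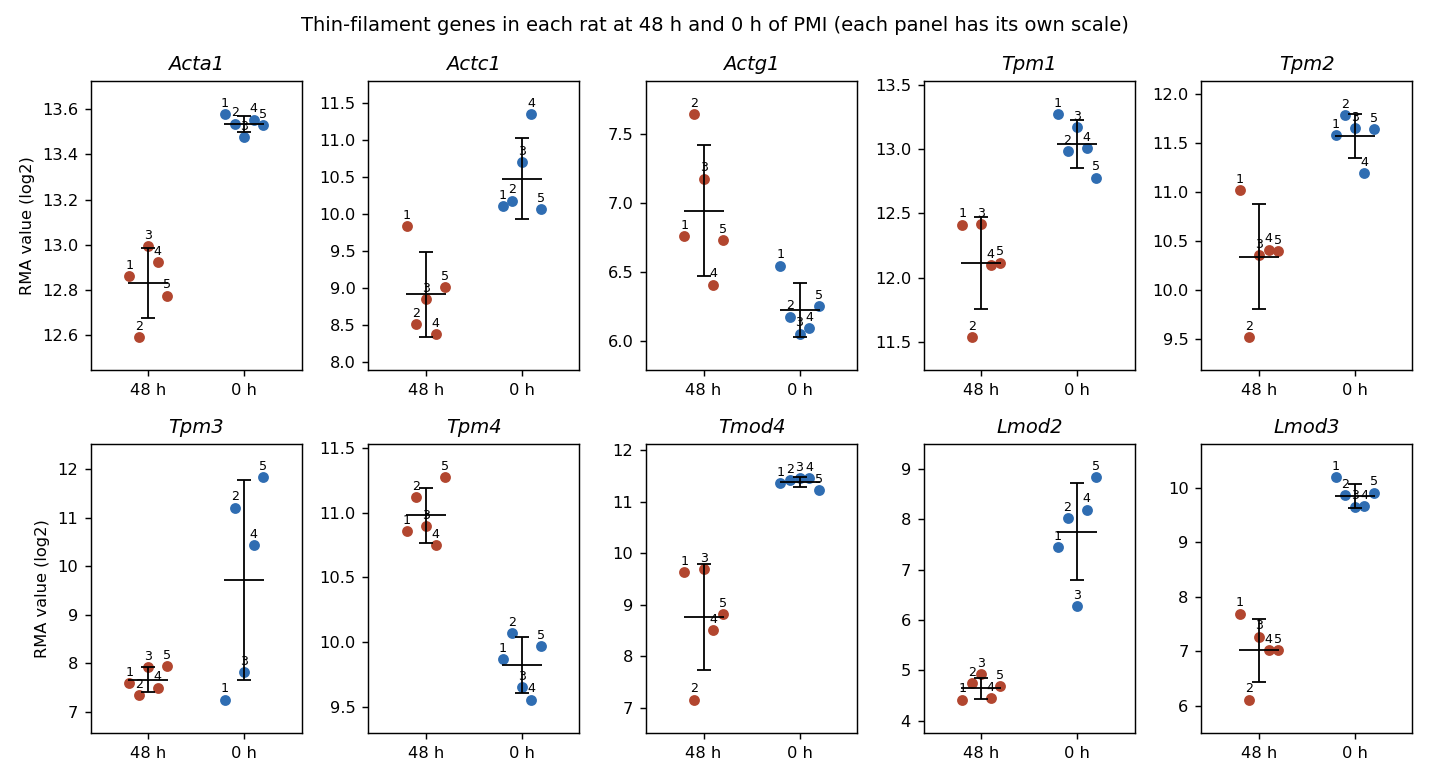
Log2 RMA value (vertical axis, own scale in each panel) of each gene in the 5 rats at 48 h (left, red) and the 5 rats at 0 h (right, blue), with the mean and SD as bars and rat numbers beside the points. Tmod4, Lmod2 and Lmod3 have separate groups, whereas the 0 h rats of Tpm3 spread from 7.25 to 11.83 and overlap the 48 h rats.

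The promoters of the 3 actin genes are printed first because Acta1 and Actg1 differed from 0 h in opposite directions on the deposited scale while part of their regulatory sequence is alike. When arrays were centred on either set of spiked controls, both genes were lower at 48 h. Serum response factor, encoded by Srf, binds a sequence known as the CArG box, long known as a control element of actin genes. The windows are the 250 bases before the start of each gene, on the minus strand of the rat assembly GRCr8 from RefSeq, written 5′ to 3′ in the direction of the gene, and capitals mark a CArG box.
Acta1, chr19:68784195-68784444: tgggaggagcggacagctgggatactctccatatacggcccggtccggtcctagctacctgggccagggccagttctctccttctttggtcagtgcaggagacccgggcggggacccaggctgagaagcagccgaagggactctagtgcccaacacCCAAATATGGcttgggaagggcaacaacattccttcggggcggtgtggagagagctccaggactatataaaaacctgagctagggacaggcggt
Actg1, chr10:106120952-106121201: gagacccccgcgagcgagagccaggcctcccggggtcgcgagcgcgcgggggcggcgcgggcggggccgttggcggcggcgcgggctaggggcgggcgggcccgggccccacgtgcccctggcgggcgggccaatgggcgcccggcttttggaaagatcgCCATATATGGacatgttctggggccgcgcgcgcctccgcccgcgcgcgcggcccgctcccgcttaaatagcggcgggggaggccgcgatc
Actc1, chr3:121271828-121272077: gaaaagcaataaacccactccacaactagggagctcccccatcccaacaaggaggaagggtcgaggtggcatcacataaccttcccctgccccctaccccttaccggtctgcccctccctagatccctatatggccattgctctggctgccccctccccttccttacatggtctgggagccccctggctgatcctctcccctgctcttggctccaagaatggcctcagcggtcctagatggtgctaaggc
The box of Acta1 begins 94 bases before its start and that of Actg1 begins 90 bases before its start. Both windows therefore carry the element at nearly the same distance, and the Actc1 window holds no exact match to it. The search took CCWWWWWWGG, where W is A or T, with no mismatch, and so did not count the similar ccctatatgg in the Actc1 window. The 10 genes, Lmod3 included, have 13 such windows, since some have several starts. A CArG box was found in 2 of the 13, those of Acta1 and Actg1, where 1.5% of 33469 windows in the rat table held it. On both strands of the same 250 bases, an E-box (CANNTG) was found in 9 of the 13 windows, a sequence that 65.5% of all windows hold. The MCAT element CATTCC was found in 2 windows, of Acta1 and Tpm1, where the share of all windows is 12.1%, the letters TATAAA in that of Acta1, where it is 12.9%, and no MEF2 site was found, where it is 2.96%. No 2 of these matches overlap in the Acta1 window. A match is a stretch of letters and does not show that a factor was bound there.

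Acta1, the main actin of adult skeletal fibres, was lower in every 48 h rat by an amount under the fold criterion. Its values were 12.86, 12.59, 13.00, 12.92 and 12.77 in the 48 h rats, against 13.58, 13.54, 13.48, 13.55 and 13.53 in the 0 h rats. The groups did not overlap, and the 0 h rats lay within a narrow band while the 48 h rats varied more. The difference was -0.71 (SE 0.15, 95% interval -1.02 to -0.39, limma adjusted p = 0.00101), which left 61.3% of the 0 h level relative to the array. It was -1.98 and -2.78 when arrays were centred on the hybridization and poly-A controls. No tested probe set read above Acta1 on any 0 h array, and whether its signal was compressed there was not tested. After cyclic loess normalization of the arrays in place of RMA's scaling alone, the same difference was -0.02 with an adjusted p of 0.94, so the Acta1 difference was not detectable on that scale.

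Actc1, the cardiac alpha-actin that skeletal fibres use during development, fell 2.96-fold. It read 9.84, 8.51, 8.85, 8.38 and 9.01 in the 48 h rats, against 10.11, 10.18, 10.70, 11.35 and 10.07 in the 0 h rats. The groups were apart by 0.23 between the highest 48 h rat, rat 1, and the lowest 0 h rat, rat 5. The change was -1.57 (SE 0.28, 95% interval -2.16 to -0.97, limma adjusted p = 0.000258), and after cyclic loess it was -0.93 (adjusted p = 0.0139), short of the fold criterion. Markers of immature fibres moved beside it in part, with 3 of 7 lower, including Myog, a myogenic transcription factor, at 5.97 ± 0.30 at 48 h and 7.64 ± 0.19 at 0 h (SD over 5 rats), and Myh3, the embryonic myosin heavy chain, at 6.29 ± 0.72 at 48 h and 7.67 ± 0.81 at 0 h. The list's median level ranged from 5.49 to 6.09 at 48 h and from 6.53 to 7.02 at 0 h. Of 5 cardiac markers 1 fell, and 1 rose relative to the array but not when arrays were centred on either set of controls, and their median level was 4.91 to 6.08 at 48 h and 4.89 to 5.26 at 0 h. Tnnt2, the troponin T of heart and developing muscle, fell to 5.93 ± 0.73 at 48 h, against 7.45 ± 0.47 at 0 h, while Nppa, the atrial natriuretic peptide, read 6.37 ± 0.41 at 48 h and 5.13 ± 0.22 at 0 h. Myl7, an atrial myosin light chain, read 5.30 ± 0.76 at 48 h and 5.11 ± 0.23 at 0 h, near the array median. The part of these cells in the Actc1 change was not tested.

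Actg1, the cytoplasmic gamma-actin found beneath the membrane and in most cells, did not pass the fold criterion and differed in the opposite direction from Acta1. Its values were 6.76, 7.64, 7.18, 6.41 and 6.73 in the 48 h rats, against 6.55, 6.18, 6.06, 6.10 and 6.26 in the 0 h rats. Rat 4 at 48 h lay below rat 1 at 0 h, so the groups overlap, and rat 2 at 48 h was the highest of all. The difference was 0.72 (SE 0.21, 95% interval 0.27 to 1.16, limma adjusted p = 0.011), and it turned to -0.56 and -1.35 when arrays were centred on the hybridization and poly-A controls. RefSeq lists 11 Actg1 pseudogenes in the rat, and the probe set has no genome position in its name, so its signal may include near-identical copies and is reported as uncertain. Acta1 has 3 such copies in the table and Actc1 has 1.

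The contrast between these actins was tested within each array, by comparing the difference of a pair of probe sets between groups, for 8 pairs of actins, tropomyosins or caps. Acta1 minus Actg1 was lower at 48 h by a difference of changes of -1.42 (two-sided exact permutation test over all splits of the rats, p = 0.00794, adjusted p = 0.0317 over 8 pairs), where 0.00794 is the floor of p for this number of rats. The Acta1 groups lay 0.48 apart, and the Actg1 groups overlapped by less, from 6.41 at 48 h to 6.55 at 0 h. This exact p therefore had to be at its floor and is no evidence beyond the changes of the genes themselves. A shift of a whole array cancels within such a pair, and after cyclic loess the difference was -1.08 (adjusted p = 0.0317). Acta1 minus Actc1 differed by 0.86 (exact p = 0.0556, adjusted p = 0.148), which did not pass. Without rat 2, 3 or 4 at 0 h the Acta1 and Actg1 difference was -1.41, -1.39 and -1.39. The adjusted p of the exact test was then 0.0635 each, which did not pass, and it was 0.0212 to 0.0317 without any other single rat.

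Tpm1, which encodes the alpha-tropomyosin of fast fibres, was lower in all 48 h rats but just short of 2-fold. It read 12.41, 11.54, 12.42, 12.10 and 12.12 in the 48 h rats, against 13.27, 12.98, 13.17, 13.01 and 12.78 in the 0 h rats. Rat 2 stood lowest at 48 h, and the groups did not overlap. The difference was -0.92 (SE 0.19, 95% interval -1.32 to -0.53, limma adjusted p = 0.000742), a 1.90-fold difference, and -0.23 after cyclic loess (adjusted p = 0.325).

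Tpm2, the beta-tropomyosin present in both fibre types, fell 2.34-fold. Its values were 11.02, 9.52, 10.36, 10.41 and 10.39 in the 48 h rats, against 11.58, 11.79, 11.65, 11.19 and 11.64 in the 0 h rats. Rat 1 at 48 h came within 0.17 of rat 4 at 0 h, and rat 2 at 48 h again stood lowest. The change was -1.23 (SE 0.23, 95% interval -1.71 to -0.75, limma adjusted p = 0.000328), or -0.55 after cyclic loess (adjusted p = 0.0646). A further Tpm2 probe set, TSUnmapped00000004.rn.2, fell more, with 10.47, 8.77, 9.40, 9.01 and 9.13 in the 48 h rats, against 11.33, 11.57, 11.48, 10.86 and 11.35 in the 0 h rats. Its change was -1.96 (SE 0.26, limma adjusted p = 1.3e-05), so both Tpm2 probe sets gave the same direction and separate groups.

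Tpm3, the slow-fibre alpha-tropomyosin, fell 4.14-fold on average, and its 0 h rats were unlike each other. It read 7.59, 7.34, 7.92, 7.49 and 7.94 in the 48 h rats, against 7.25, 11.20, 7.81, 10.44 and 11.83 in the 0 h rats. All 48 h rats were at the level of the 0 h rats 1 and 3, and 0 h rats 2, 4 and 5 stood far above, so the groups overlap. The change was -2.05 (SE 0.65, 95% interval -3.43 to -0.68, limma adjusted p = 0.0172). Leaving out rat 2 at 0 h gave -1.68 with an adjusted p of 0.0531, and leaving out single rats moved the change between -2.67 without rat 1 at 0 h and -1.52 without rat 5 at 0 h. As a percentile rank within each array, Tpm3 differed by -2.13 between groups (exact permutation p = 0.563).

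Markers of slow fibres varied among the 0 h rats in the same way. All 8 slow-fibre genes measured were called lower at 48 h, but 5 were after cyclic loess, 4 with trend and robust moderation in limma and 2 without moderation. Their median was 5.69, 5.70, 5.40, 5.98 and 6.69 in the 48 h rats, against 5.40, 10.09, 6.89, 9.78 and 10.87 in the 0 h rats. Thus rats 1 and 3 were low at 0 h for these genes as well, and the order of the 5 rats was that of Tpm3 at 5 of 5 places, whereas at 48 h the orders matched at 1 of 5. Among the markers with the highest level at 0 h, Myl2, the slow myosin light chain, read 7.91 ± 0.48 at 48 h and 9.42 ± 0.92 at 0 h (SD over 5 rats), and Tnnt1, the slow troponin T, read 5.63 ± 0.87 at 48 h and 9.33 ± 2.89 at 0 h. Tnni1, the slow troponin I, read 6.14 ± 0.77 at 48 h and 9.12 ± 2.57 at 0 h. Of 11 fast-fibre markers measured, 7 were also called lower and none higher, with 4 lower after cyclic loess. A fall was thus not particular to slow-fibre genes. The labels name one muscle site for all rats, and the part of slow-fibre content in the Tpm3 difference was not tested.

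Tpm3 had 2 further probe sets. TSUnmapped00000003.rn.2 read 5.29, 4.89, 5.13, 5.49 and 5.25 in the 48 h rats, against 4.63, 9.26, 5.75, 8.39 and 10.11 in the 0 h rats, with a change of -2.42 (SE 0.73, limma adjusted p = 0.0133). It repeated the split of the 0 h rats, again in the order of the slow-fibre median at 5 of 5 places. TSUnmapped00000002.rn.2 read from 5.73 to 6.18 in the 48 h rats, against 5.99, 7.14, 6.46, 7.24 and 7.57 in the 0 h rats, with a difference of -0.92 (SE 0.25, limma adjusted p = 0.00659) that stayed under the fold criterion. Rats 1 and 3 at 0 h were lowest here too, over a range of 1.57 that was narrower than the 5.48 of the other unplaced set. RefSeq lists 3 Tpm3 pseudogenes and 4 curated Tpm3 transcripts, so how these probe sets share signal between copies and transcripts is uncertain.

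**Figure D2:**
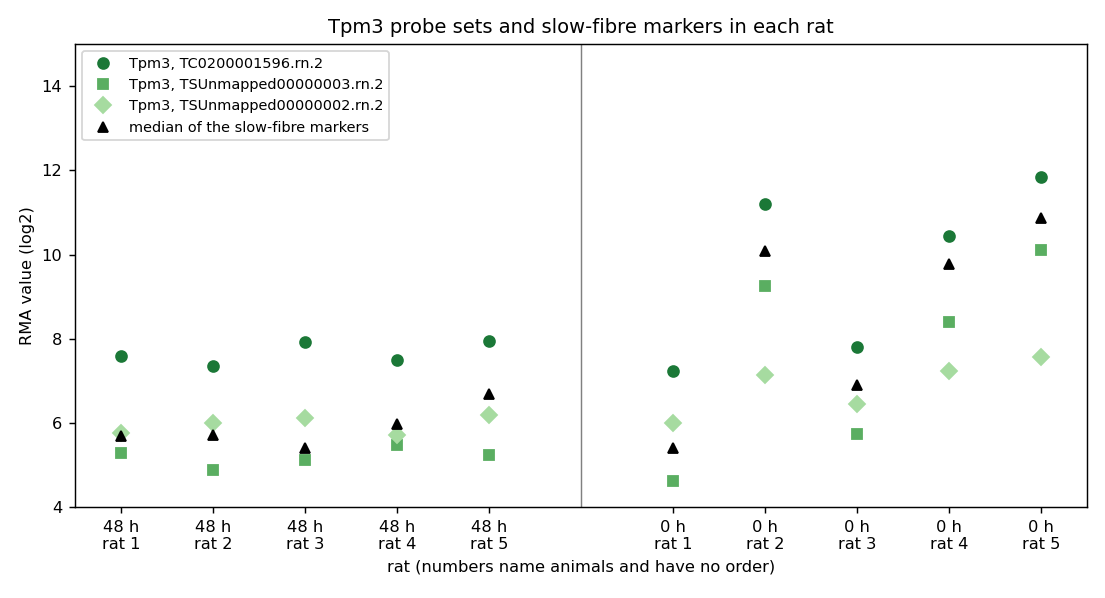
Log2 RMA value (vertical axis) of the 3 Tpm3 probe sets and the median of 8 slow-fibre markers (black triangles) in each 48 h rat (left) and each 0 h rat (right), single values with no error bar. At 0 h the main Tpm3 probe set and the slow-fibre median are both low in rats 1 and 3 and high in rats 2, 4 and 5, and at 48 h no rat has a slow-fibre median above 6.69.

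Tpm4, a tropomyosin of the cytoskeleton rather than the sarcomere, rose 2.23-fold relative to the array, a direction that turned to -0.12 and -0.92 when arrays were centred on the hybridization and poly-A controls. It read 10.86, 11.12, 10.90, 10.75 and 11.27 in the 48 h rats, against 9.87, 10.07, 9.65, 9.56 and 9.97 in the 0 h rats. The lowest 48 h rat lay 0.68 above the highest 0 h rat, the reverse of the pattern of Tpm1 and Tpm2. The change was 1.15 (SE 0.17, 95% interval 0.80 to 1.51, limma adjusted p = 3.18e-05). Within arrays, Tpm1 minus Tpm4 was lower at 48 h by a difference of changes of -2.08 (exact permutation p = 0.00794, adjusted p = 0.0317 over 8 pairs). This difference was -2.15, -2.002 and -2.02 without rat 2, 3 or 4 at 0 h (adjusted p = 0.0635 each), which did not pass. Tpm1 and Tpm4 each had groups apart, in opposite directions, so the exact p with all rats had to be at its floor. It is no evidence beyond the changes of the genes themselves.

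Endothelial and smooth muscle cells also use Tpm4, and their markers are given beside it. Of 6 endothelial markers 5 were higher at 48 h relative to the array. When arrays were centred on hybridization or poly-A controls 0 were, beside 13 and 0 of all 23188 probe sets. The median level of the endothelial markers was 8.15 to 9.13 at 48 h and 6.80 to 7.17 at 0 h. Cdh5, an endothelial cadherin, read 10.70 ± 0.40 at 48 h and 9.48 ± 0.20 at 0 h (SD over 5 rats). Pecam1, an adhesion protein of endothelial junctions, read 9.30 ± 0.52 at 48 h and 7.84 ± 0.24 at 0 h. None of 8 smooth muscle markers passed in either direction, while 3 were higher after cyclic loess. With centring on poly-A controls 8 were lower, as were 22407 of all 23188 probe sets. The median change of the smooth muscle markers was 0.38 on the deposited scale. Their median level in each rat was 6.79 to 7.52 at 48 h and 6.95 to 7.84 at 0 h. The part of these cells in the Tpm4 change was not tested.

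The tropomyosins of the sarcomere were not told apart from each other by the change they showed. Tpm1 minus Tpm3 differed by 1.13 between groups (exact permutation p = 0.27, adjusted p = 0.432 over 8 pairs), Tpm2 minus Tpm3 by 0.82 (exact p = 0.389, adjusted p = 0.499) and Tpm1 minus Tpm2 by 0.31 (exact p = 0.135, adjusted p = 0.27). The SD of Tpm1 minus Tpm3 among rats was 0.28 at 48 h and 2.24 at 0 h, so the spread of Tpm3 at 0 h sets the precision of both pairs that include it.

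The listed genes of the pointed end, Tmod4, Lmod2 and Lmod3, called caps here, all fell. Not every gene of this kind did, since Tmod3 was higher relative to the array, as given below. Tmod4, the tropomodulin of skeletal muscle, fell 6.15-fold. Its values were 9.63, 7.16, 9.68, 8.51 and 8.82 in the 48 h rats, against 11.36, 11.42, 11.45, 11.45 and 11.22 in the 0 h rats. The 0 h rats had nearly 1 level, while the 48 h rats spread over 2.53 with rat 2 lowest. The change was -2.62 (SE 0.35, 95% interval -3.35 to -1.89, limma adjusted p = 1.18e-05), and -2.22 without rat 2 at 48 h (adjusted p = 1.61e-06).

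Lmod2, a leiomodin of cardiac and skeletal sarcomeres, fell 8.65-fold, the largest change of the 9 genes. The probe set lies at chr4:51553439-51561135 on the plus strand of the rat build rn6. It read 4.42, 4.75, 4.92, 4.45 and 4.69 in the 48 h rats, against 7.45, 8.03, 6.27, 8.20 and 8.84 in the 0 h rats. At 48 h all rats were below the array median and within 0.50 of each other, and at 0 h all were above it, with rats 3 and 1 lowest. The 0 h rats 1 and 3 were also lowest for Tpm3 and the slow-fibre median, though the full order matched that median at 1 of 5 places. The part of slow-fibre content in the Lmod2 change was not tested. The change was -3.11 (SE 0.33, 95% interval -3.82 to -2.41, limma adjusted p = 1.23e-06). Background probe sets at 48 h read up to 3.82, so the Lmod2 values at 48 h lay close to the floor of the array.

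Lmod3, the leiomodin found mainly in skeletal muscle, moved with them. Its probe set TC0400003414.rn.2 lies at chr4:129604378-129618629 on the minus strand of rn6. It read 7.69, 6.11, 7.27, 7.02 and 7.02 in the 48 h rats, against 10.20, 9.86, 9.66, 9.66 and 9.91 in the 0 h rats. The groups were far apart, and rat 2 at 48 h was again the lowest. The change was -2.84 (SE 0.24, 95% interval -3.33 to -2.34, limma adjusted p = 8.18e-08), a 7.14-fold fall.

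No difference between the caps was detected in the pairs compared. Lmod2 minus Lmod3 differed by -0.28 between groups (exact permutation p = 0.603, adjusted p = 0.603 over 8 pairs) and Tmod4 minus Lmod3 by 0.22 (exact p = 0.437, adjusted p = 0.499). The intervals of all 3 caps lay wholly below those of Acta1, Tpm1 and the main Tpm2 probe set, whose lower ends are -1.02, -1.32 and -1.71. That of the further Tpm2 probe set, TSUnmapped00000004.rn.2, was -2.51 to -1.41 and overlapped those of all 3 caps. The interval of Tpm3 overlapped those of all 3 caps, and that of Actc1 overlapped that of Tmod4. A direct test between caps and filament proteins was not made, since the pattern was chosen after the values were seen.

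**Figure D3:**
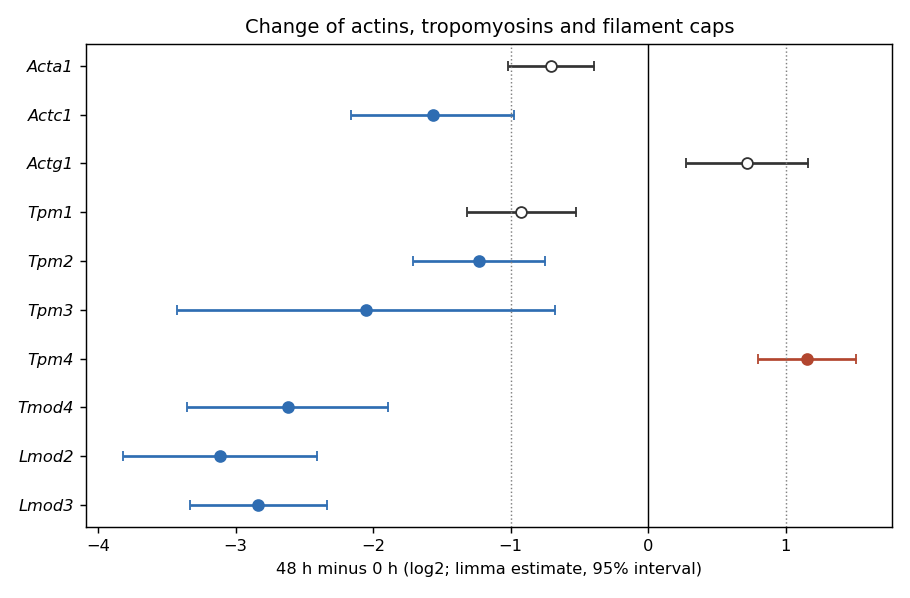
Difference in log2 RMA value between 48 h and 0 h (horizontal axis) of each gene with its 95% interval from limma, 5 rats a group, where filled points passed both criteria and dotted lines mark 2-fold. The intervals of Tmod4, Lmod2 and Lmod3 lie left of those of Acta1, Tpm1 and the main Tpm2 probe set, and overlap that of Tpm3. The further Tpm2 probe set is not drawn, and its interval overlaps those of the caps. The interval of Actc1 overlaps that of Tmod4. Only Tpm4 passed to the right, a direction that turned when arrays were centred on spiked controls.

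Rat 2 at 48 h had the lowest value of its group for 5 of the 9 genes, which were Acta1, Tpm1, Tpm2, Tpm3 and Tmod4, and the highest for Actg1. Without it the 5 falls and the rise of Tpm4 were called as before. The changes without it were -1.46 for Actc1, -1.02 for Tpm2, -1.97 for Tpm3, 1.12 for Tpm4 and -3.14 for Lmod2.

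The calls of the caps held under another scaling while those of several filament genes did not. After cyclic loess, which bends each array to the others as a function of level, Tmod4 changed by -1.97, Lmod2 by -2.87 and Lmod3 by -2.25, and these falls remained past both criteria. Tpm3 changed by -1.45 on that scale (limma adjusted p = 0.0929), so that 2 of the 9 genes fell, Tmod4 and Lmod2, and 2 rose, Tpm4 by 1.82 and Actg1 by 1.06. Centring on spiked controls moved every gene down by a common amount for each array and left the order of the genes as it was.

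**Figure D4:**
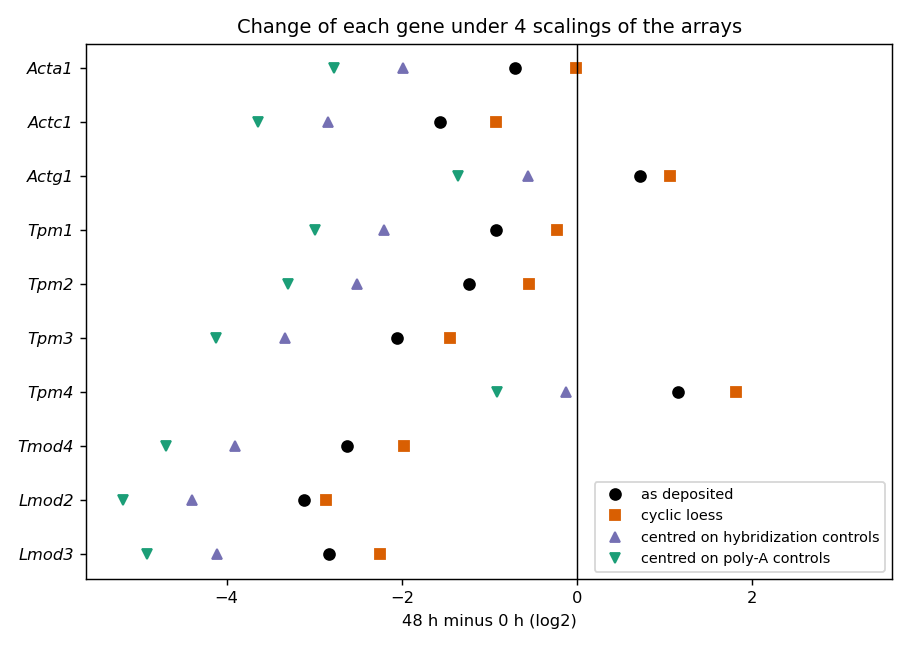
Difference in log2 value between 48 h and 0 h (horizontal axis, means of 5 rats a group, no error bars) of each gene on the deposited scale, on the cyclic loess scale, and relative to the hybridization or poly-A controls. Tmod4, Lmod2 and Lmod3 lie left of -1.9 on all 4 scales, Acta1 reaches -0.02 after cyclic loess, and Actg1 and Tpm4 lie right of 0 on 2 scales and left of it on the other 2.

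For each gene the 3 genes with the most similar pattern over the 10 arrays were found by the root mean square difference of log2 values centred on each gene's mean, a description of these arrays that uses the difference between groups itself. Tpm1 was nearest to Pvalb (0.087), a calcium buffer of fast fibres, Gapdh (0.099), a glycolytic enzyme, and Tnnt3 (0.12), the fast troponin T. Tpm3 was nearest to Ankrd2 (0.63), Atp2a2 (0.63) and Tnni1 (0.70), all slow-fibre genes, at distances that were the widest among the 9 genes. Acta1 was nearest to Fxyd1 (0.089), a regulator of the sodium pump, to Rps20 (0.11), a ribosomal protein, and to Dnmt3a (0.11), a DNA methyltransferase.

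Tmod4 was nearest to Pabpc4 (0.22), a poly-A binding protein, Eef1a2 (0.23), the translation elongation factor of muscle and nerve, and Atpsckmt (0.25). Lmod2 was nearest to Hspb7 (0.45), a small heat shock protein of muscle, Smtnl1 (0.46) and Fhl1 (0.51), a LIM protein of muscle. Actc1 was nearest to Chchd10, Trpc4ap and Zbtb7b at 0.33 to 0.34, and Tpm4 to Upp1, Tcf4 and Elovl5 at 0.10 to 0.14. Tpm2 was nearest to Plpbp, Ctbp1 and Wwp1 at 0.17 to 0.18. Actg1 was nearest to Or4a15 (0.14) and Vom1r76 (0.15), an olfactory and a vomeronasal receptor gene, and to Egfl8 (0.16). Or4a15 and Vom1r76 had means of 4.03 and 4.08 at 48 h and 3.17 and 3.24 at 0 h. These means lay near the background control probe sets, at 3.54 to 3.82 at 48 h and 3.04 to 3.14 at 0 h.

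Genes that work with the thin filament were taken from 5 lists with 46 names, of which 38 were measured. Of these, 22 fell and 1 rose, beside 14.4% and 3.85% of all genes, and their median change was -1.37. The lists were chosen with earlier results of these arrays known, so the counts describe them and are no separate evidence.

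Among 13 measured genes of filament length and capping, 8 fell and 1 rose. Klhl41 and Klhl40, kelch proteins that stabilize thin-filament proteins in muscle, fell to 7.09 ± 0.97 at 48 h, against 10.72 ± 0.14 at 0 h, and to 4.80 ± 0.25 at 48 h, against 7.94 ± 0.48 at 0 h (SD over 5 rats). Nrap and Xirp2, actin-binding scaffold proteins, changed by -3.50 and -3.36 (limma adjusted p = 3.48e-08 and 6.36e-08). Tmod3, the tropomodulin found in most cells, read 9.68 ± 0.36 at 48 h and 8.45 ± 0.19 at 0 h, a rise of 1.23 relative to the array that turned to -0.051 and -0.84 when arrays were centred on the hybridization and poly-A controls. The muscle cap Tmod4 and the widely expressed Tmod3 thus had opposite signs on the deposited scale, as Tpm1 and Tpm4 did.

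Of 13 measured genes of actin turnover, 6 fell and none rose. Cfl2, the cofilin of muscle, which severs filaments, changed by -3.37 (SE 0.25, limma adjusted p = 2.63e-08). Cap2, a cyclase-associated protein that acts on actin monomers, changed by -2.60. Pfn2, a profilin, and Gsn, the severing protein gelsolin, changed by -2.22 and -1.55.

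All 3 measured genes of actin gene control and modification fell. Smyd1, a muscle methyltransferase needed for sarcomere assembly, read 6.73 ± 1.10 at 48 h and 10.13 ± 0.30 at 0 h (SD over 5 rats). Abra, an actin-binding activator of serum response factor signalling, changed by -2.56 (limma adjusted p = 8.88e-07). Srf itself, the factor of the CArG box shown above, read 6.02 ± 0.47 at 48 h and 7.55 ± 0.42 at 0 h, a change of -1.53 (SE 0.24, limma adjusted p = 6.4e-05).

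Troponin, the calcium switch that sits on tropomyosin, had 5 of 6 genes lower, and 3 with trend and robust moderation or 2 without moderation. The slow subunits Tnnt1, Tnni1 and Tnnc1 changed by -3.70, -2.98 and -2.98, and their groups overlap, with 0 h rats between 5.56 and 12.06 for Tnnt1. The fast subunit Tnni2 changed by -1.77 (SE 0.23, limma adjusted p = 7.63e-06) with groups apart. Of the other 3 actins none passed, with Actb, the cytoplasmic beta-actin, at 11.88 ± 0.19 at 48 h and 11.35 ± 0.14 at 0 h (SD over 5 rats).

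**Figure D5:**
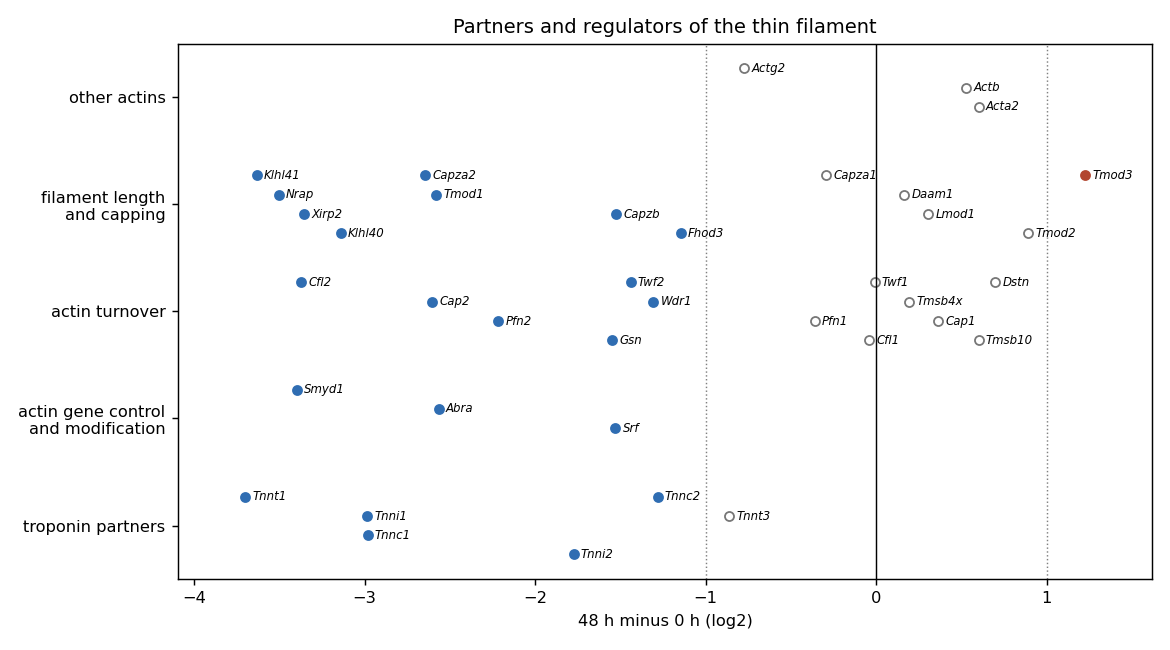
Difference in log2 RMA value between 48 h and 0 h (horizontal axis, limma estimates without error bars, 5 rats a group) of 38 genes in 5 lists, where filled points passed both criteria, blue lower and red higher, and dotted lines mark 2-fold. Of these genes 22 lie at the left as filled points and Tmod3 is the single filled point at the right, a direction that turned when arrays were centred on spiked controls.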

How the data were processed

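Femoral muscle of 10 rats was hybridized to Clariom S Rat arrays, 1 array per rat. After amplification and biotin labeling (3′ IVT Pico kit), the authors ran RMA and deposited log2 values, used here as they stand. The submitters' processing notes name Transcriptome Analysis Console 4.0 and build rn6. Scan batches are not given in the sources used here, and precision is limited by the number of arrays.

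Of 24834 probe sets, 1646 controls were left out and 23188 were tested with limma 3.58.1 (lmFit and eBayes, 2-sided) in R 4.3.3, with Benjamini-Hochberg adjustment over all of them. A symbol was found for 15049 probe sets and none for 8139. Calls needed a 2-fold change and an adjusted p below 0.05. For isoform pairs, an exact permutation test used every split of the rats. The script was tested on simulated data. Figures were drawn with matplotlib 3.10.9.

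The text names all listed genes, up to 4 called genes of each partner list by size of change in the commoner direction and up to 2 in the opposite one, up to 3 genes of each marker list with the highest mean at 0 h, and the 3 genes most alike to each listed gene. Actb was added after its values were seen. Members and lists were chosen with earlier results of these data known. The replicate block was a fixed factor in the limma model, and the statmod version recorded was 1.5.0.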

Additional observations from a re-analysis of the deposited data

How the results depend on the processing

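The numbers of members lower and higher at 48 h (5 and 1) became 2 and 2 after cyclic loess, and 8 and 0 with centring on poly-A controls. Centring on hybridization controls gave 0 higher, and dropping the fold criterion gave 2 higher. Of the 38 partner genes, 22 fell and 1 rose, which became 37 lower and 0 higher with poly-A centring, 0 higher with hybridization centring, and 6 higher both after cyclic loess and without the fold criterion. Over all 23188 probe sets, 2811 were lower and 1009 higher on the deposited scale, and 2049 and 1307 after cyclic loess. Hybridization centring gave 14650 and 13, poly-A centring 22407 and 0, and dropping the fold criterion 5296 and 5106. The poly-A counts of these genes, and the lack of higher calls with either centring, thus go with the whole array. Centring turned the changes of Actg1 (-0.56 with hybridization controls, -1.35 with poly-A controls), Tpm4 (-0.12 and -0.92) and Tmod3 (-0.051 and -0.84). Both centrings move all genes of an array by the same amount, and whether the controls or RMA track total RNA better was not tested. Cyclic loess left the changes of Acta1, Tpm1, Tpm2 and Tpm3 without an adjusted p under 0.05. Tpm3 also missed it with trend and robust moderation (0.0968) and without moderation (0.113).

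Leaving out each rat in turn gave 4 to 5 members lower, with 4 without rat 2 at 0 h, where Tpm3 was lost, and 1 to 1 higher. It gave 21 to 22 partner genes lower and 1 to 1 higher. Of 8 isoform pairs 2 passed, Acta1 minus Actg1 and Tpm1 minus Tpm4, and for both the exact p was bound to be at its floor, as said above. When a rat was left out 0 to 3 passed, with 0 without rat 2, 3 or 4 at 0 h, where the differences themselves moved little. Rats with the same number in both groups are different animals, and their deviations correlated at -0.00416 to 0.0761. With the replicate number as a block, 5 members were lower and 1 higher and 22 partner genes were lower and 1 higher, as without it, and 3 of 5 rats correlated best with their own number. With that block 0 pairs passed, since 5 pairs allow no exact p under 0.0625. Dim probe sets limit the size of a change near the floor, as for Lmod2.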

Other observations

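Other cells of the muscle showed their own pattern beside the thin-filament genes. Of 6 fibroblast markers 5 fell, and 1 after cyclic loess, among them Dcn, the proteoglycan decorin, at 10.50 ± 0.12 at 48 h and 11.74 ± 0.15 at 0 h (SD over 5 rats), and Col1a2, a chain of type I collagen, at 10.05 ± 0.14 at 48 h and 11.28 ± 0.28 at 0 h. Of 6 macrophage markers 1 fell and none rose. Mrc1, the mannose receptor, read 6.04 ± 0.40 at 48 h and 6.78 ± 0.33 at 0 h. With centring on hybridization or poly-A controls 6 macrophage markers were lower, as were 14650 and 22407 of all 23188 probe sets. Of 5 erythroid markers 2 were higher relative to the array, 1 when arrays were centred on hybridization controls and 0 on poly-A controls. These centrings left 13 and 0 of all 23188 probe sets higher. Slc4a1, the red cell anion exchanger, read 6.83 ± 0.46 at 48 h and 5.61 ± 0.45 at 0 h, and Alas2, the heme synthesis enzyme of red cells, was higher by 2.38 relative to the array (SE 0.22, limma adjusted p = 2.71e-07).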
